A study of Mus musculus with 4 samples.

Results

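A CpG dyad is a pair of cytosines that face each other, a base apart, on the forward and the reverse strand of a CG in the DNA. The dyads described here were all pairs of neighbouring positions on the 19 mouse autosomes for which the deposited table lists 10 to 50 reads on both strands in all 4 libraries. The table holds 25374149 cytosine positions, and 7909805 autosomal dyads are listed on both strands. Of these, 8464 dyads (0.107%) met the read range, after 73 neighbouring pairs that span 2 adjacent CpGs and 3 pairs in odd runs of positions were set aside. A lower minimum of 5 reads would have kept 163629 dyads and a higher one of 15 reads 1640.

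Whole-genome bisulfite sequencing, in which unmethylated cytosines are converted and read as thymine, measured DNA from CD4+ T cells sorted from the spleens of mice of the NOD strain, which becomes diabetic through autoimmunity. The study asked how methylation differs between regulatory and effector T cells and after treatment with OX40L and Jagged-1 (OX40L-JAG1), proteins used here to expand regulatory T cells. All mice were dosed weekly for 3 weeks from 6 weeks of age, and cells were sorted 1 week after the last dose, at 10 weeks. The groups were CD4+CD25hi regulatory T cells (Treg) of OX40L-JAG1 mice, Treg of PBS mice, CD4+CD25- effector T cells (Teff) of OX40L-JAG1 mice and Teff of PBS mice. Each group has 1 library, so every test below compares the reads of 2 strands or 2 libraries and none measures the spread between mice. The number of animals behind each library is not given in the labels. In sorted bulk cells, a different mix of cells and a different level in each cell cannot be told apart.

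In mammals a CpG is symmetric, and methylation is usually present on both of its strands. After replication the new strand is bare, and the maintenance methyltransferase DNMT1, guided by UHRF1, copies the mark from the parental strand. A dyad methylated on 1 strand of a single molecule is called hemimethylated. The reads of the 2 strands in these libraries come from different DNA molecules, so what follows compares the mean level of the strands and does not measure hemimethylation of a molecule.

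Of the 8464 dyads, 20 lay in the promoter window of a gene, taken as 250 bases before to 50 bases after its start, and 14 windows held at least 1. The windows of 3 genes with several dyads are shown, because they span the range of levels met below. They are read from RefSeq on GRCm38.p6, 5′ to 3′ on the strand of the gene, which is the reverse strand for all 3, and capitals mark the dyads. Klra7 encodes a Ly49 receptor of natural killer cells, and the other entries are predicted genes.
Klra7, chr6:130231638-130231937: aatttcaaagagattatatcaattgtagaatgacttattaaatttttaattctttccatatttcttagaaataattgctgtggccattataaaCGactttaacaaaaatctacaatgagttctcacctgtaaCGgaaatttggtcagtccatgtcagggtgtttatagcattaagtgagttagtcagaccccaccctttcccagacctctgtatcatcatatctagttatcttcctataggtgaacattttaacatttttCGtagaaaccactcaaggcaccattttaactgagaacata
Gm40986, chr13:65863344-65863643: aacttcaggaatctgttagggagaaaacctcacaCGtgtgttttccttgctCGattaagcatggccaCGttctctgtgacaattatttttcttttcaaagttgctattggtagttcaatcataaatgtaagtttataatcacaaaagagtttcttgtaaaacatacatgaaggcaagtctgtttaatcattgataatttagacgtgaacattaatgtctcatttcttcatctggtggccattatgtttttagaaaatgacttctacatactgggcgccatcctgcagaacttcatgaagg
Gm14410, chr2:177206447-177206746: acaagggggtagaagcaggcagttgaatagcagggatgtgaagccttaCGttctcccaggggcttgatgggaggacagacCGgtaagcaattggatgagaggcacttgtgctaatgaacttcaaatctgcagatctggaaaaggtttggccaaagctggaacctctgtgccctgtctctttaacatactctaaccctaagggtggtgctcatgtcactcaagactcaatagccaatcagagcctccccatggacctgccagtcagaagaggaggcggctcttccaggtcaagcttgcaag
The Klra7 window holds 3 CpGs and all 3 are dyads of the set, against a median of 7 CpGs in the 32851 promoter windows of the table.

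The dyad at chr6:130231804-130231805, the middle one in the Klra7 window, was partly methylated on both strands in every library. Its forward and reverse strands were at 45.5% and 50% in OX40L-JAG1 Treg, 47.1% and 40.9% in PBS Treg, 35.0% and 51.7% in OX40L-JAG1 Teff, and 46.9% and 37.8% in PBS Teff. The sign of its strand difference was thus not the same in all libraries, and no library was called in the test described below. The first capitals of the Gm40986 window, at chr13:65863608-65863609, mark a dyad with high levels, at 75.0% and 92.3% in OX40L-JAG1 Treg, 94.7% and 87.0% in PBS Treg, 84.2% and 91.7% in OX40L-JAG1 Teff, and 78.9% and 92.6% in PBS Teff. The dyad nearer the start of Gm14410, at chr2:177206665-177206666, was low on both strands throughout, between 8% and 25.0%. None of the 20 promoter dyads was called asymmetric by the test described below, which called 0.236% of all dyads in at least 1 library, so this count says nothing particular about promoters.

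The 4 libraries differ in depth. Summed over the listed positions, the read counts came to 103584075 in OX40L-JAG1 Treg, 131555634 in PBS Treg, 159291553 in Teff of OX40L-JAG1 mice and 208402911 in PBS Teff. A read over several CpGs counts at each of them. The median reads per strand of a dyad were 15, 18, 20 and 24 in the same order. The sorted types carried their defining marks. Over the 18 listed positions of Foxp3, the master regulator of Treg, the level was 58.2% in OX40L-JAG1 Treg and 51.7% in PBS Treg, against 80.7% in Teff of OX40L-JAG1 mice and 89.1% in PBS Teff. Ikzf2, which encodes the Treg factor Helios, had 50.6% and 57.7% in the same Treg libraries, against 80.1% and 83.5% in the same Teff libraries, over 472 positions.

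The dyads are not an even sample of the genome. Of the 302104 forward-strand positions of listed dyads with 10 to 50 reads in all libraries, 2.80% had their reverse partner in the same range. The partner was below the listed minimum of 5 reads for 67.9% of them in OX40L-JAG1 Treg, 58.8% in PBS Treg, 46.4% in Teff of OX40L-JAG1 mice and 33.5% in PBS Teff. Across the 8464 dyads, the read depth of the forward and the reverse strand had a Pearson's r of 0.083 in OX40L-JAG1 Treg, 0.051 in PBS Treg, 0.055 in Teff of OX40L-JAG1 mice and 0.040 in PBS Teff. For 1 strand across 2 libraries the r of depth was 0.650 to 0.723. Depth was therefore alike between libraries on a strand and nearly unrelated between the strands of a dyad.

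The dyads were also gathered in few places. They fell into 1628 windows of 1 Mb, with a median of 2 dyads a window, and 38 windows with 20 or more dyads (called dyad-rich here) held 2844 dyads (33.6%). The richest lay at 177 Mb of chromosome 2 with 446 dyads, 82 of them in the pseudogene Gm14412. Next were 344 dyads at 147 Mb of chromosome 4, with 67 in the zinc-finger gene Zfp978, and 218 dyads at 15 Mb of chromosome 5 around Gm30417 and the Speer family, genes of glutamate-rich proteins of the testis. Further ones held the Klra receptors at 130 Mb of chromosome 6 (99 dyads) and vomeronasal receptors at 7 Mb of chromosome 7 (38 dyads). These are families of near-identical copies, and reads can be placed on the wrong copy there. In the dyad-rich windows 18.7% of listed positions had 10 or more reads in OX40L-JAG1 Treg, 23.2% in PBS Treg, 26.7% in Teff of OX40L-JAG1 mice and 33.2% in PBS Teff, against 8.29%, 11.5%, 14% and 19.8% elsewhere in the same libraries. The part of read placement in the results below was not tested. The excess over counting error, the calls and the mean treatment difference are therefore given inside and outside these windows. The pooled strand levels, the agreement of the strands, the change of asymmetry and the treatment difference by level class are given over all dyads only.

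Taken over all dyads, the strands were level. The forward and the reverse strand of OX40L-JAG1 Treg both stood at 78.3%, with a difference of -0.0267 points and a 95% Newcombe interval of -0.331 to 0.277. In PBS Treg they stood at 81.7% and 82.0%, a difference of -0.350 points (-0.614 to -0.0870), the one interval of the 4 that leaves out 0. OX40L-JAG1 Teff had 77.8% and 78.0%, a difference of -0.189 points (-0.459 to 0.0817). PBS Teff had 82.2% and 82.2%, a difference of -0.0653 points (-0.292 to 0.161). No library had a strand difference as large as 1 point. These intervals, like the others given for levels, cover counting error only, since reads without molecular identifiers need not be separate molecules.

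**Figure D1:**
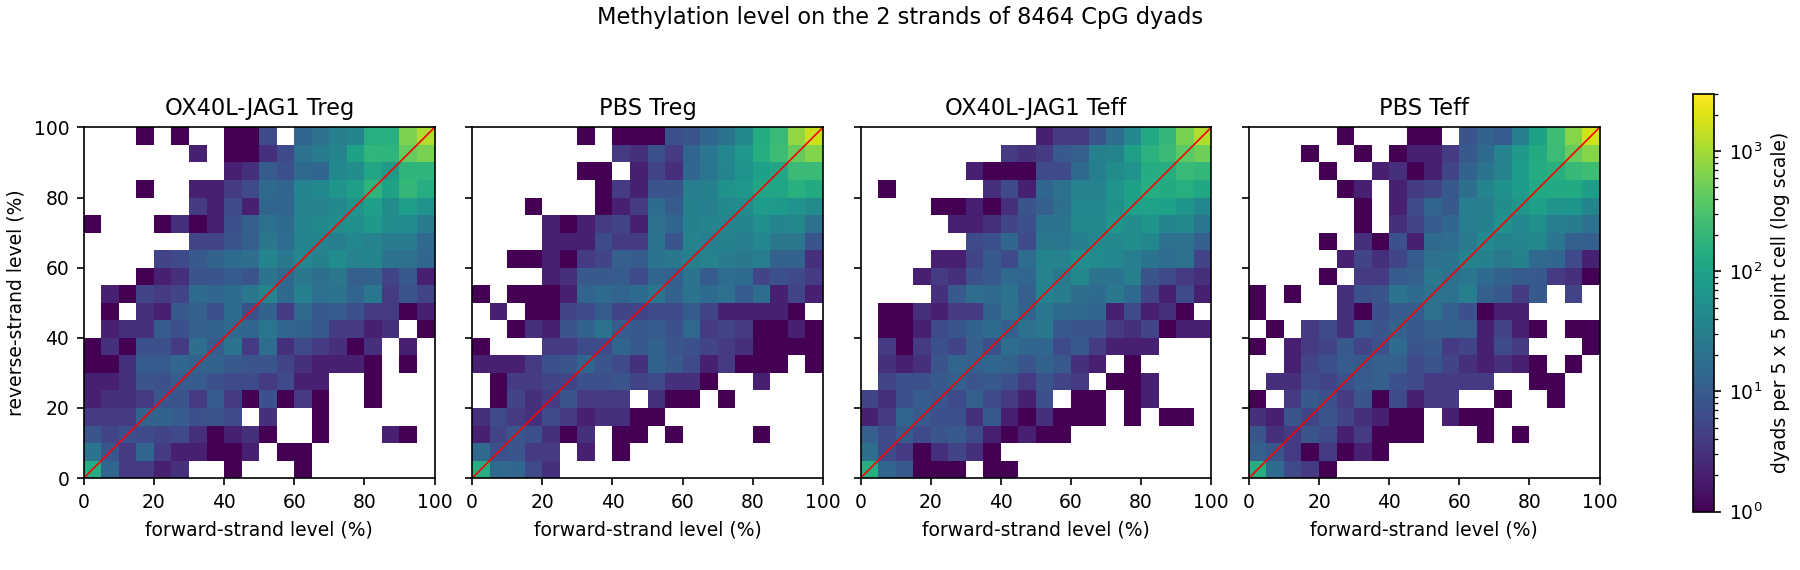
Methylation level of the forward strand (x axis, %) and the reverse strand (y axis, %) of the 8464 dyads in each library, with the colour giving the number of dyads per cell of 5 by 5 points on a log scale. Dyads gather at the upper right corner along the red line of equal levels, and 6, 1, 4 and 1 dyads (left to right) have 80% or more on one strand and 20% or less on the other.

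Dyad by dyad, most CpGs were methylated on both strands. Both strands were at 80% or more in 55.4% of dyads in OX40L-JAG1 Treg, 64.0% in PBS Treg, 54.4% in Teff of OX40L-JAG1 mice and 65.1% in PBS Teff. Both were at 20% or less in 264, 260, 266 and 249 dyads of the same libraries. Full opposition, with one strand at 80% or more and the other at 20% or less, was seen in 6 dyads in OX40L-JAG1 Treg, 1 in PBS Treg, 4 in Teff of OX40L-JAG1 mice and 1 in PBS Teff. The strands were within 10 points of each other in 64.8% of dyads in OX40L-JAG1 Treg, 70.8% in PBS Treg, 67.6% in Teff of OX40L-JAG1 mice and 75.4% in PBS Teff, an order that rises with the depth within each cell type and within each treatment. The forward strand was the higher in 3656, 3601, 3746 and 3780 dyads and the reverse strand in 3706, 3640, 3885 and 3806, in the same order. The reverse strand was thus the higher slightly more often in all 4 libraries.

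The Pearson's r between the strands' levels over the 8464 dyads was 0.843 in OX40L-JAG1 Treg, 0.863 in PBS Treg, 0.864 in Teff of OX40L-JAG1 mice and 0.887 in PBS Teff. The same strand read in 2 libraries gave an r of 0.860 to 0.893. The opposite strand of the same library thus tracked a strand's level about as closely as the same strand of another library did. The points of these correlations share a library or a position, and neighbouring dyads share reads.

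The strand differences were larger than counting error alone gives, by a small amount. The expected value was computed exactly per dyad by holding its reads and methylated reads fixed and dealing them to the strands (the hypergeometric null of Fisher's exact test). A difference of 20 points or more was seen in 1081 dyads of OX40L-JAG1 Treg where 995 were expected, in 770 of PBS Treg where 651 were expected, in 883 of OX40L-JAG1 Teff where 734 were expected, and in 544 of PBS Teff where 426 were expected. Differences of 50 points or more were few and further above the expectation, at 31 against 12.6, 21 against 5.37, 19 against 5.56 and 16 against 1.70 in the same order. Counting error thus accounted for most of the differences of 20 points, and the observed count stood further above it at 50 points than at 20 points in all 4 libraries.

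The mean squared strand difference was 1.12 times its expectation in OX40L-JAG1 Treg (95% interval over dyads 1.08 to 1.17), 1.17 times in PBS Treg (1.13 to 1.22), 1.16 times in OX40L-JAG1 Teff (1.11 to 1.21) and 1.23 times in PBS Teff (1.17 to 1.29). As a spread beyond counting error this is an SD of 4.40, 4.52, 4.54 and 4.55 points, nearly the same in all 4 libraries. Dyads at 20% or less had no such excess, with ratios of 0.928, 0.984, 0.897 and 0.985. Between 20% and 80% the ratios were 1.17, 1.27, 1.23 and 1.37, and from 80% up they were 1.06, 1.07, 1.06 and 1.09. By these classes the excess sat mainly in partly methylated dyads, but the classes were set by the summed reads of the same library. A wide strand difference itself places a dyad in the middle class, so this split is partly fixed in advance. The intervals of the ratios treat dyads as independent, although neighbouring dyads share reads, so they are likely too narrow.

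The excess also differed by position. In the dyad-rich windows the ratio was 1.31 in OX40L-JAG1 Treg, 1.36 in PBS Treg, 1.40 in Teff of OX40L-JAG1 mice and 1.42 in PBS Teff, against 1.01, 1.05, 1.02 and 1.11 for the other 5620 dyads. Among dyads at 20% to 80% alone it was 1.41, 1.49, 1.51 and 1.58 in the dyad-rich windows, against 0.992, 1.06, 1.04 and 1.16 outside. The SD beyond counting error was 7.39, 7.12, 7.44 and 6.70 points inside, against 1.25, 2.26, 1.73 and 2.92 points outside. Outside these windows the strands of a dyad thus differed by little more than their reads allow. Dyad-rich windows were also less methylated, at means of 72.9%, 76.3%, 72.7% and 76.4%, against 81.6%, 85.3%, 81.1% and 85.4% elsewhere. The windows were chosen by how many dyads they hold, after earlier results were seen, and this comparison has no test.

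**Figure D2:**
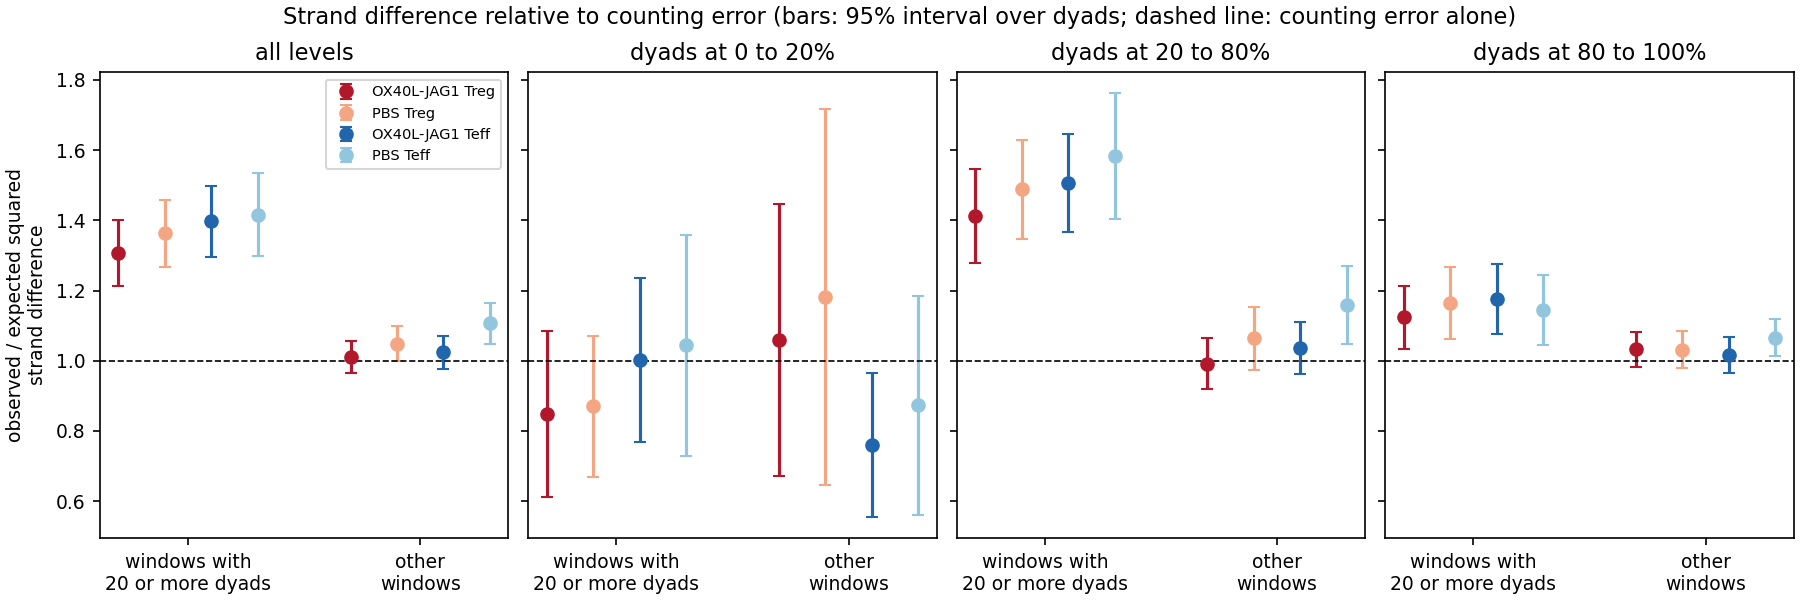
Mean squared strand difference divided by its exact expectation from counting error (y axis), for dyads in 1 Mb windows with 20 or more dyads and in other windows (x axis), by level class. Points are the 4 libraries, bars the 95% interval over dyads taken as independent, and the dashed line is counting error alone. Between 20% and 80% the dyad-rich windows lie at 1.41 to 1.58 and the others at 0.992 to 1.16.

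Single dyads were then tested within each library by Fisher's exact test, two-sided, with Benjamini-Hochberg adjustment over the 8464 dyads, and called at an adjusted p under 0.05 with 20 points or more between the strands. The calls numbered 5 in OX40L-JAG1 Treg (0.0591% of dyads), 7 in PBS Treg (0.0827%), 8 in Teff of OX40L-JAG1 mice (0.0945%) and 10 in PBS Teff (0.118%). The forward strand was the higher in 3, 5, 5 and 4 of them. At an unadjusted p under 0.05 there were 208, 187, 254 and 256 dyads in the same order. The calls rose with depth, and asymmetry strong enough to be called was rare everywhere. With at least 5 reads, over 163629 dyads, the calls were 3, 0, 2 and 6.

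Together the libraries called 20 dyads, of which 14 were called in exactly 1 library, 3 in 2, 2 in 3 and 1 in all 4. No dyad was called in both directions. All 20 lay in dyad-rich windows, each with at least 33 dyads, and 10 lay within 145 to 148 Mb of chromosome 4, among 706 dyads there. Another 4 were on chromosome 5, 2 on chromosome 13 and 1 each on chromosomes 2, 6, 8 and 16. Of the 20 called dyads, 9 lay inside a gene and 16 inside or within 5 kb of one. Among all dyads of the set, 38.7% lay inside a gene and 52.5% inside or within 5 kb of one. Whether the called dyads differ from the set in this was not tested.

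The asymmetry of the called dyads recurred in the other libraries. Taking each library's calls and reading the other 3 libraries, 15 of 15 differences had the called direction for OX40L-JAG1 Treg, 21 of 21 for PBS Treg, 21 of 24 for OX40L-JAG1 Teff and 30 of 30 for PBS Teff. The median difference in the called direction was 51.4, 43.8, 41.8 and 46.0 points in those other libraries, against 76.9, 57.7, 59.0 and 59.5 points in the library that called it. Of the 20 dyads, 19 had the same sign in all 4 libraries, against 1050 of the 8464 dyads (12.4%). Of each library's list, 60.0% in OX40L-JAG1 Treg, 71.4% in PBS Treg, 37.5% in Teff of OX40L-JAG1 mice and 50% in PBS Teff was also called in another library. The 10 dyads described next were chosen for a difference kept in all 4 libraries, so their shared sign is a description and not a result. With at least 5 reads, where the adjustment ran over more dyads, 6 of the 10 were called in no library, and those in Zfp980 and Zfp978, at chr5:15624748-15624749 and at chr4:146174501-146174502 were called in 2 libraries each. By chi-square test the dyad at chr13:66625126-66625127 was called in none.

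The strongest lay in Zfp980, a zinc-finger gene in a tandem array on chromosome 4, at chr4:145689477-145689478. Its forward strand had 22 of 25 reads methylated in OX40L-JAG1 Treg, 22 of 27 in PBS Treg, 30 of 32 in OX40L-JAG1 Teff and 30 of 36 in PBS Teff, which is 88.0%, 81.5%, 93.8% and 83.3%. Its reverse strand had 3 of 27, 3 of 21, 4 of 24 and 7 of 28, which is 11.1%, 14.3%, 16.7% and 25.0%. The forward strand was far above the reverse strand in every library, and with at least 10 reads this was the one dyad called in all 4 (2 libraries with at least 5 reads). The adjusted p of Fisher's exact test was 0.000216 in OX40L-JAG1 Treg, 0.00945 in PBS Treg, 2.11e-05 in Teff of OX40L-JAG1 mice and 0.00608 in PBS Teff.

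A dyad in Zfp978, another zinc-finger gene of that array, at chr4:147127343-147127344, was also higher on the forward strand. Forward and reverse levels were 88.2% and 11.4% in OX40L-JAG1 Treg, 89.7% and 34.3% in PBS Treg, 90.9% and 48.3% in OX40L-JAG1 Teff, and 94.3% and 32.5% in PBS Teff. It was called in all libraries but OX40L-JAG1 Teff, where the adjusted p of Fisher's exact test was 0.582. Its forward strand ranged from 88.2% to 94.3% over the libraries and its reverse strand from 11.4% to 48.3%. Pooled over all 67 dyads in Zfp978 the forward and reverse levels were close, at 74.9% and 73.1% in OX40L-JAG1 Treg, 77.2% and 74.9% in PBS Treg, 76.3% and 72.8% in OX40L-JAG1 Teff, and 78.6% and 76.2% in PBS Teff. Pooling cancels differences of opposite sign, so this does not show that its other dyads lack them. Over these dyads the mean squared strand difference was 1.83, 1.25, 1.17 and 1.68 times its expectation from counting error, in the same order.

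A pair of dyads within Zfp600, which overlaps the vomeronasal receptor pseudogene Vmn2r-ps17 and Gm13165 in the annotation, went the other way. At chr4:146174501-146174502 the forward and reverse strands had 44.4% and 85.7% in OX40L-JAG1 Treg, 40% and 97.1% in PBS Treg, 30.6% and 88.6% in OX40L-JAG1 Teff, and 52.1% and 95.8% in PBS Teff. At chr4:146174937-146174938 they had 52.4% and 95.5%, 45.8% and 100%, 51.2% and 94.7%, and 55.0% and 92.7% in the same order. The first was called in 3 libraries and the second in 2, and in both the reverse strand was nearly fully methylated while the forward strand stood near the middle. In the same array, a dyad in Gm42346 at chr4:145432450-145432451 had 100% and 40%, 100% and 38.5%, 95.2% and 43.8%, and 95.8% and 41.7%, and was called only in PBS Treg. A dyad near Zfp980 at chr4:145668252-145668253 had 33.3% and 90%, 44.4% and 84.6%, 43.8% and 91.7%, and 19% and 93.3%, and was called only in PBS Teff.

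On chromosome 5 the asymmetric dyads lay around Gm30417, a long non-coding RNA gene, and Speer4d. At chr5:15624748-15624749 the forward and reverse strands were at 15.8% and 100% in OX40L-JAG1 Treg, 42.9% and 90.9% in PBS Treg, 40.9% and 92.3% in OX40L-JAG1 Teff, and 27.8% and 100% in PBS Teff. This was the widest difference of any called dyad, at -84.2 points in OX40L-JAG1 Treg, where 3 of 19 forward reads and 16 of 16 reverse reads were methylated. A dyad at chr5:15638785-15638786, near the same gene, had the opposite sign, with 72.2% and 33.3%, 81.0% and 27.8%, 75.9% and 16.0%, and 73.1% and 30%. The dyads near this gene thus differed in which strand was the higher. The last pair of the 10 widest recurring dyads lay in no gene and none within 5 kb, at chr5:15489112-15489113 with 87.5% and 44.4%, 79.4% and 37.1%, 82.9% and 26.7%, and 79.2% and 38.9%, and at chr13:66625126-66625127 with 29.4% and 100%, 36.4% and 87.5%, 39.1% and 80.6%, and 43.8% and 86.5%.

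**Figure D3:**
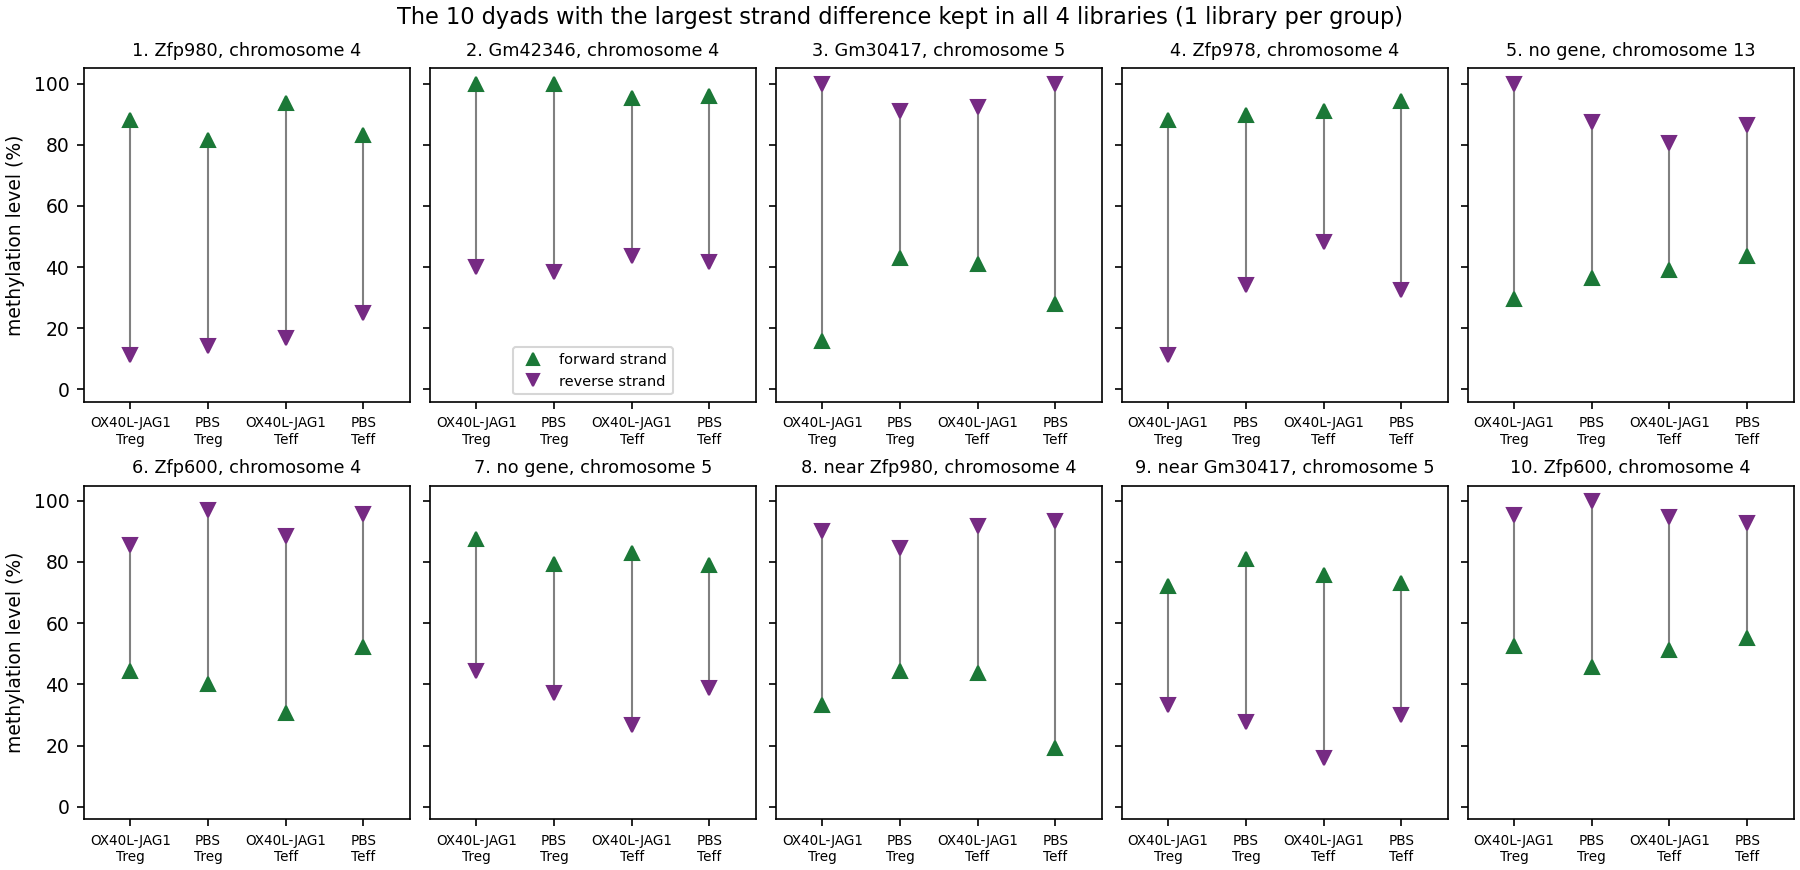
Methylation level (y axis, %) of the forward strand (green, upward) and the reverse strand (purple, downward) in each of the 4 libraries (x axis), for the 10 dyads with the largest strand difference kept in all libraries among those called in at least 1. In every panel the strand that is higher in one library is higher in all 4, and the smallest difference drawn is 37.7 points, in PBS Teff at the last dyad.

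The exception to the shared sign was a dyad within 5 kb of Gm14410, at chr2:177209787-177209788. Its forward and reverse strands were at 53.8% and 70% in OX40L-JAG1 Treg, 52.9% and 80% in PBS Treg, 88.9% and 15% in OX40L-JAG1 Teff, and 65.6% and 68.2% in PBS Teff. Only OX40L-JAG1 Teff was called, with an adjusted p of Fisher's exact test of 0.0155, and the other libraries leaned the other way.

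Most of the variance of the strand difference was counting error, by the ratios of 1.31 to 1.42 in dyad-rich windows and 1.01 to 1.11 elsewhere given above, which limits how far r can rise. Between pairs of libraries the Pearson's r of a dyad's strand difference, a description over dyads, was 0.231 to 0.299 over the 2844 dyads in dyad-rich windows and 0.018 to 0.086 over the 5620 dyads elsewhere. Adjacent dyads within 20 bases of each other, which share reads, had an r of 0.298 to 0.323 for their strand differences (817 pairs). It was 0.050 to 0.129 for dyads 21 to 100 bases apart (983 pairs) and 0.011 to 0.077 for those 101 to 1000 bases apart (940 pairs). The r of their levels was 0.405 to 0.465 for 21 to 100 bases. Counting error enters the strand difference and the level to different extents, so the 2 kinds of r are not compared.

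Whether the asymmetry differs between cell types or with treatment was tested for each dyad by the interaction of strand and library in a logistic model (Wald test, 0.5 added to each count, Benjamini-Hochberg over 8464 dyads). No dyad was called (0%) for OX40L-JAG1 Treg against OX40L-JAG1 Teff, PBS Treg against PBS Teff, OX40L-JAG1 Treg against PBS Treg or OX40L-JAG1 Teff against PBS Teff. At an unadjusted p under 0.05 there were 156, 128, 123 and 155 dyads (1.84%, 1.51%, 1.45% and 1.83%). The mean squared change of the strand difference between 2 libraries was 1.0, 0.986, 1.0 and 1.0 times what the counting error of both gives. No change of asymmetry with cell type or treatment was therefore detectable at this depth, although a dyad would need a large change to be called at 10 to 50 reads a strand.

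The smallest p of the 4 comparisons came from a dyad in A26c3, an ankyrin-repeat gene, at chr2:111130366-111130367. Its forward strand was the lower in OX40L-JAG1 Teff, at 29.6% against 72.7% on the reverse strand, and the higher in PBS Teff, at 70.6% against 21.4%, a change of -92.3 points. The unadjusted p of the Wald test was 0.000305 and the adjusted p 1.0, and in both Treg libraries the forward strand was the higher, at 52.4% and 30% in OX40L-JAG1 Treg and 57.9% and 30.8% in PBS Treg. For OX40L-JAG1 Treg against OX40L-JAG1 Teff the smallest was the dyad near Gm14410 given above, with a change of -90.0 points and an unadjusted p of 0.000809. A dyad in Mrgpra3, a receptor of itch neurons, at chr7:47599070-47599071, was the third in that comparison, with 62.1% and 23.5% in OX40L-JAG1 Treg and 17.1% and 41.2% in OX40L-JAG1 Teff. For OX40L-JAG1 Treg against PBS Treg, a dyad in Serpinb9f, a serine protease inhibitor gene, at chr13:33330351-33330352 had 64.7% and 20% in OX40L-JAG1 Treg and 33.3% and 72.7% in PBS Treg. For PBS Treg against PBS Teff, the smallest p was at a dyad in no gene at chr6:130210690-130210691, with 81.4% and 62.5% in PBS Treg and 58.3% and 93.5% in PBS Teff. None of these passed the adjusted threshold.

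The level itself was lower in the OX40L-JAG1 than in the PBS libraries, and on both strands alike. Pooled over the dyads, OX40L-JAG1 Treg stood at 78.3% and PBS Treg at 81.8%, a difference of -3.58 points. The forward strand gave -3.42 points (95% interval -3.71 to -3.14) and the reverse strand -3.75 points (-4.03 to -3.46). OX40L-JAG1 Teff stood at 77.9% and PBS Teff at 82.2%, a difference of -4.31 points, with -4.37 points (-4.62 to -4.13) on the forward and -4.25 points (-4.50 to -4.0) on the reverse strand. The intervals of the strands overlapped in both cell types. Averaged over dyads, the difference was -3.33 points in dyad-rich windows and -3.64 points elsewhere in Treg, and -3.66 and -4.31 points in Teff. The mean was negative on all 19 autosomes in both cell types, from -4.93 to -2.86 points in Treg and from -4.79 to -3.12 points in Teff.

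Dyads at which both strands were lower in the OX40L-JAG1 library outnumbered those at which both were higher. In Treg 30.7% were lower on both strands and 11.2% higher on both, and in Teff 37.0% were lower on both and 10.4% higher on both. The strands disagreed in sign in 34.2% in Treg and 34.4% in Teff. The part of the difference shared by the strands, taken from their covariance over dyads, had an SD of 3.46 points in Treg and 4.11 points in Teff. Over dyads, the Pearson's r between the differences on the 2 strands was only 0.080 in Treg and 0.133 in Teff. A lower mean level by itself puts more dyads lower on both strands, so these counts do not show agreement dyad by dyad.

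Set by level in the libraries of the other cell type, which the difference does not use, the treatment difference was largest at partly methylated dyads. At 20% to 80% it was -6.31 points on the forward and -6.30 points on the reverse strand in Treg (2426 dyads), and -7.37 and -6.69 points in Teff (2383 dyads). At 80% and more it was -2.49 and -2.54 points in Treg and -3.00 and -3.05 points in Teff. At 20% and less it was 0.274 and 0.149 points in Treg and -0.787 and -0.804 points in Teff, over 279 and 280 dyads. Both strands therefore showed the same gradation. The OX40L-JAG1 library was the shallower of each pair, and the part of depth or of bisulfite conversion in this difference was not tested.

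**Figure D4:**
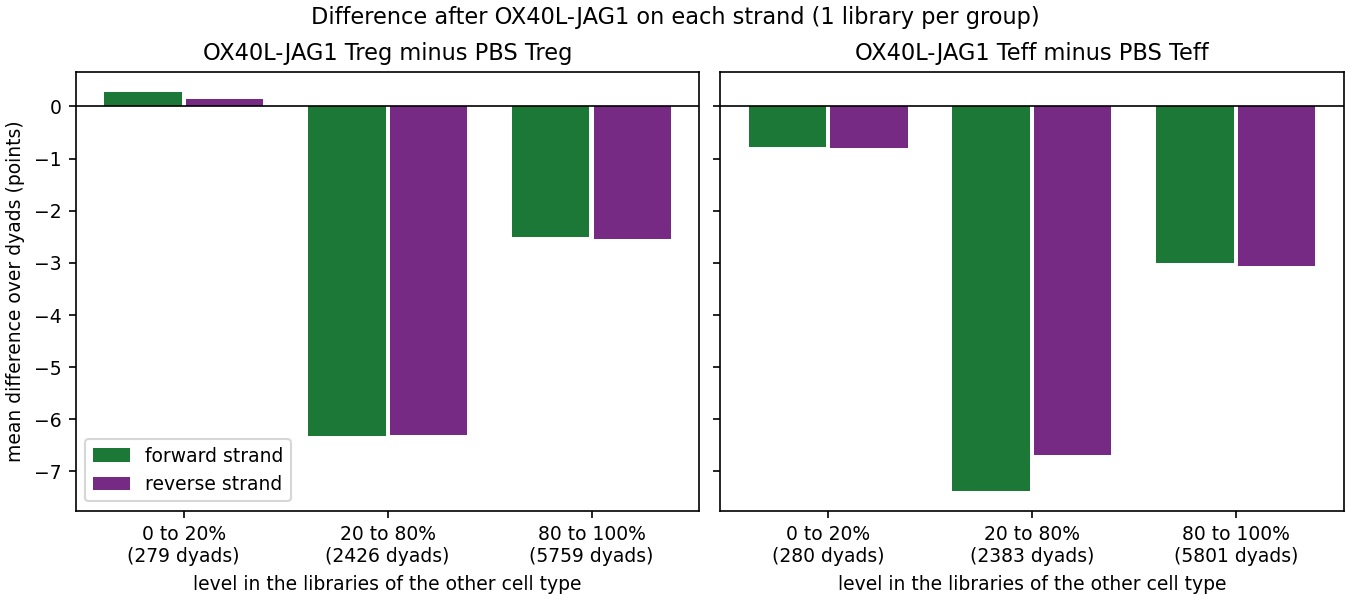
Mean difference in level between the OX40L-JAG1 and the PBS library (y axis, percentage points) on the forward (green) and reverse (purple) strand, for dyads classed by their level in the libraries of the other cell type (x axis), with 1 library per group and no error bar. In the class of 20% to 80% the bars reach -6.31 and -6.30 points in Treg and -7.37 and -6.69 points in Teff.

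Few single dyads carried a treatment difference large enough to call with both strands summed (Fisher's exact test, the same adjustment and thresholds). In Treg none was called (0%), although 377 of the 8464 dyads were lower and 41 higher at an unadjusted p under 0.05. In Teff 4 were called (0.0473%), all lower in OX40L-JAG1 Teff, with 615 lower and 34 higher at the unadjusted threshold. This count depends on the depth range, with 14 calls at 15 or more reads and 0 at 5 or more. The widest, near the predicted gene Gm21321 at chr10:7388508-7388509, had 55.1% in Teff of OX40L-JAG1 mice and 95.1% in PBS Teff, with 54.1% against 92.9% on the forward and 58.3% against 100% on the reverse strand (adjusted p = 0.0370 by Fisher's exact test). A dyad near Ifi202b, an interferon-activated gene, at chr1:173983476-173983477 had 51.7% against 90.6%, with forward 50% against 90% and reverse 54.5% against 91.7% (adjusted p = 0.0149 by Fisher's exact test). A dyad in no gene at chr18:16493410-16493411 had 56.7% against 91.5% (adjusted p = 0.0370 by Fisher's exact test). At each of them both strands were lower in OX40L-JAG1 Teff, and 2 of the 4 called dyads lay in dyad-rich windows.

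Between cell types the dyads were nearly level. OX40L-JAG1 Treg had 78.3% and OX40L-JAG1 Teff 77.9%, a difference of 0.377 points, and PBS Treg had 81.8% and PBS Teff 82.2%, a difference of -0.352 points. Fisher's exact test called no dyad in the OX40L-JAG1 pair (0%). Of the 8464 dyads, 110 were lower and 114 higher in Treg in that pair at an unadjusted p under 0.05. In the PBS pair the test called 4 (0.0473%), of which 3 were lower and 1 higher in PBS Treg, and no dyad was called in both pairs. Of the 4, 2 lay in dyad-rich windows. Read on the forward strand alone, 2 dyads were called in the PBS pair (0.0236%), and both had the same sign on the reverse strand, whose reads did not choose them. With at least 5 reads, the summed calls were 8 lower and 3 higher. Dyads with both strands lower and both higher in Treg were similarly frequent, with both lower in 18.9% and both higher in 21.2% in the OX40L-JAG1 pair, and 19.4% and 20.6% in the PBS pair.

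The widest difference called in the PBS pair was in Gpr55, which encodes a G protein-coupled receptor for lipids, at chr1:85954872-85954873. Its forward and reverse strands were at 27.3% and 33.3% in OX40L-JAG1 Treg and 20.7% and 36.4% in PBS Treg, against 71.8% and 61.5% in OX40L-JAG1 Teff and 100% and 93.8% in PBS Teff. Both strands of both Treg libraries lay below every strand of the Teff libraries. With both strands summed, OX40L-JAG1 Treg stood at 30.2% and OX40L-JAG1 Teff at 67.7%, and that pair was not called. PBS Treg was lower than PBS Teff by 69.2 points with both strands summed, 27.5% against 96.7% (adjusted p = 1.39e-11 by Fisher's exact test). The same dyad was the fourth called for treatment in Teff, at 67.7% in Teff of OX40L-JAG1 mice and 96.7% in PBS Teff, a difference of -29.0 points (adjusted p = 0.0370 by Fisher's exact test), a comparison that shares the PBS Teff library with the one before. Its window holds 29 dyads, 9 of them in Sp140 and 7 in Sp110, which belong to a multi-copy family, and is thus one of the dyad-rich ones.

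The other dyads called in the PBS pair were 1 in no gene at chr6:130247932-130247933, 1 in Gm38752 and 1 higher in PBS Treg. The first had 37.5% in PBS Treg and 89.6% in PBS Teff, with 28.6% and 44.4% on the strands of PBS Treg against 92% and 88.1% on those of PBS Teff (adjusted p = 1.67e-05 by Fisher's exact test). In OX40L-JAG1 mice it had 61.9% in Treg and 67.2% in Teff. The dyad in Gm38752, a predicted gene, at chr5:149099153-149099154 had 31.7% against 80% in the PBS pair and 29.7% against 44.6% in the OX40L-JAG1 pair (adjusted p = 0.0136 by Fisher's exact test in the PBS pair). The dyad at chr6:71354379-71354380, in no gene, had 85.5% in PBS Treg and 45.5% in PBS Teff (adjusted p = 0.0369 by Fisher's exact test), and 92.7% in OX40L-JAG1 Treg against 78.0% in OX40L-JAG1 Teff. In each of the 4, Gpr55 included, the OX40L-JAG1 pair differed in the same direction by fewer points, and this contrast between the pairs was not tested. The 4 were chosen for a large difference in the PBS pair, and that choice by itself favours a smaller one in the other pair. No effect of treatment is therefore read from it.

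**Figure D5:**
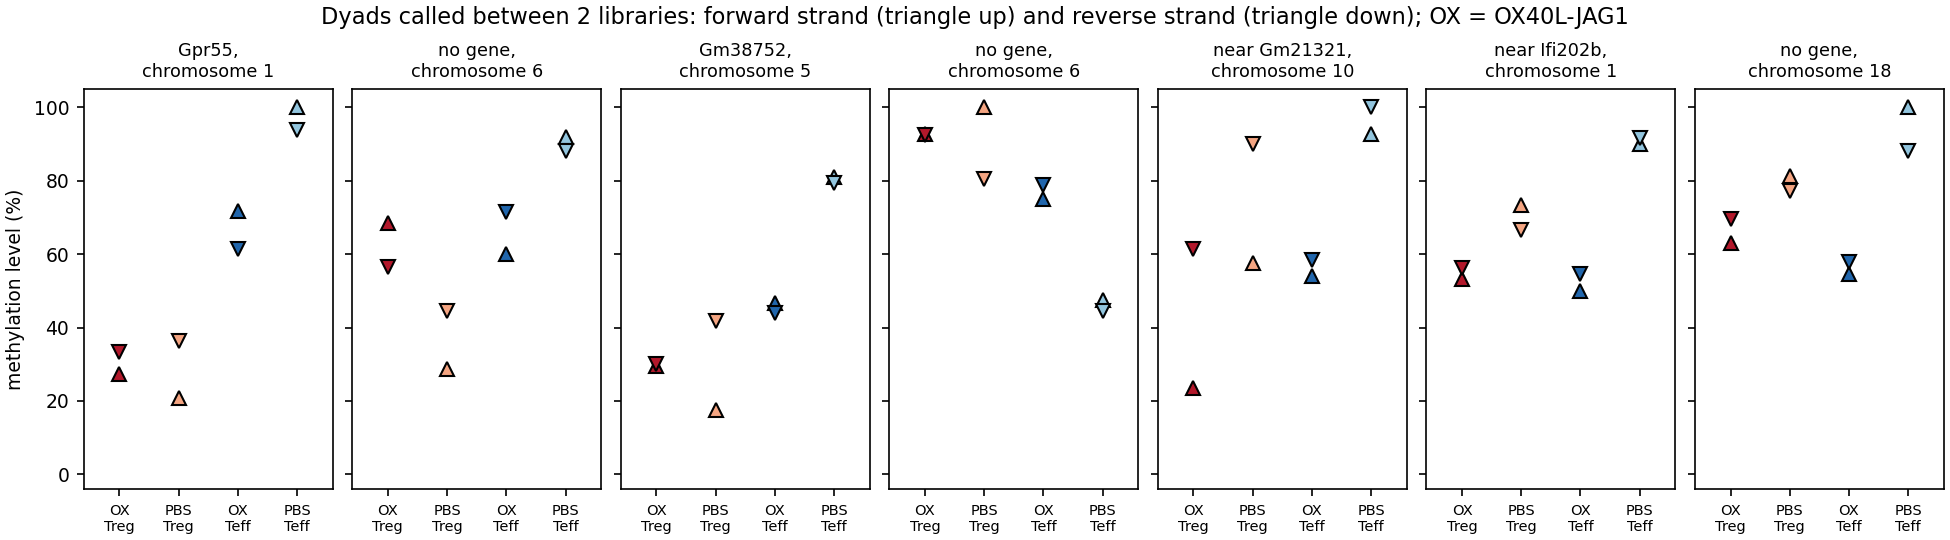
Methylation level (y axis, %) of the forward strand (upward triangle) and reverse strand (downward triangle) in the 4 libraries (x axis, OX stands for OX40L-JAG1) of the 7 dyads called between 2 libraries. At Gpr55 both strands of the Treg libraries lie at 20.7% to 36.4% and those of the Teff libraries at 61.5% to 100%.

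Of all 49993 genes in the annotation, 4.26% had a dyad in or within 5 kb of them, and of 21896 protein-coding genes 5.31%. A dyad lay in or within 5 kb of 1 of 21 Treg signature genes, 2 of 13 naive T cell genes, 0 of 16 effector T cell genes and 1 of 14 genes of the methylation machinery, and none of these dyads was called in any test. With so few genes and dyads, and 0.236% of all dyads called asymmetric in at least 1 library, these counts say nothing particular about the lists. The Treg one was in Tnfrsf9, which encodes the costimulatory receptor 4-1BB, at chr4:150927134-150927135. Its forward and reverse strands were at 26.7% and 50% in OX40L-JAG1 Treg and 66.7% and 35.7% in PBS Treg, against 50% and 61.5% in OX40L-JAG1 Teff and 72.2% and 69.6% in PBS Teff. The strand that was higher differed between the Treg libraries, and no test called the change. The dyads in Bach2, a repressor that keeps T cells quiescent, in Themis, a T cell receptor signalling protein, and in Tet2, which oxidises methylcytosine, were at 81.2% or more on every strand.

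At imprinted genes, part of the gene can be methylated on one parental copy, which gives partial methylation on both strands. Whether the dyads here lie in such parts was not tested. Of 37 such genes 36 are in the annotation, and 5 had dyads, 30 in all. Of these, 26 lay in Snhg14, the long host transcript of the Prader-Willi snoRNAs, of which 3 were also in Snrpn. At 59 Mb of chromosome 7, 23 of the Snhg14 dyads make up a dyad-rich window. Their levels were mixed. In OX40L-JAG1 Treg the dyad at chr7:59418565-59418566 had 7.69% and 15.4%, and that at chr7:59523537-59523538 had 100% on both strands. Over Snhg14 the forward and reverse levels were 69.4% and 72.2% in OX40L-JAG1 Treg, 74.8% and 76.8% in PBS Treg, 70.3% and 70.1% in OX40L-JAG1 Teff, and 77.6% and 77.3% in PBS Teff. Pooled over its 26 dyads, the strands differed by less than 3 points in every library. Single dyads differed by more, in both directions, which pooling cancels. The dyad at chr7:59603282-59603283 had a strand difference of -45.5 points in OX40L-JAG1 Treg and of 44.8 points in PBS Treg. Over the dyads of Snhg14 the mean squared strand difference was 1.02 to 1.44 times its expectation from counting error. The dyad within 5 kb of Ndn, a paternally expressed gene, was partly methylated. Its strands were at 40% and 41.7%, 66.7% and 53.3%, 53.3% and 30%, and 44.0% and 38.5%, in the order given for the Snhg14 levels. None of the 30 dyads was called asymmetric or different between libraries, but with 0.236% of all dyads called asymmetric in at least 1 library and at most 0.0473% called different in any pair, calls among 30 dyads would be rare in any case.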

How the data were processed

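The authors sequenced bisulfite-treated DNA and, per the submitters' processing notes, trimmed with Trimmomatic and used Bismark on build mm10. Their versions, settings and any duplicate removal are not given in the sources used here. As deposited, the table gives, per the file headers, a count of reads and a count of methylated reads per cytosine and library, with strands on separate lines. Its methylation level is headed as a percentage but is deposited as a fraction from 0 to 1 equal to methylated over total reads. Nonzero counts start at 5. The NOD reads were placed on the C57BL/6J build, and sequence differences between the strains were not examined here.

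Pairs of positions 1 base apart were taken as dyads, the forward cytosine first. Of 23 matches between a dyad and a RefSeq promoter sequence (GRCm38.p6), 23 had C and G at those positions. Fisher's exact test and the Wald test were computed by purpose-written code. The normal distribution and the Benjamini-Hochberg adjustment over 8464 dyads came from scipy 1.17.1. Levels were summed over reads. The code was tested on simulated data. The members, gene lists and windows were chosen with earlier results of these data known. Dyads were named by rule: the 10 widest recurring asymmetries, the widest called treatment differences, the 3 smallest p for a change of asymmetry in each pair (of which a selection is printed), and called dyads of the gene lists. For cell type the rule asked for a call in both pairs, which no dyad had. Dyads called only in the PBS pair, promoter dyads and uncalled dyads of the gene lists were therefore described outside the rule.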

Additional observations from a re-analysis of the deposited data

How the results depend on the processing

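Of 188 values recomputed under other settings, 133 stayed within 1.5 times the reported count or within its interval, and 55 moved. Many of the 133 belong to results without any call at the reported settings, such as the change of asymmetry. Those had no call under the other setting either, so they say little about stability. A minimum difference of 30 points, 1 dyad per kb (6141 dyads), centring on the median and a z test of the change of asymmetry moved none. The smallest called strand difference was 40.0 points, so a minimum of 30 points could not remove an asymmetry call. The z test was applied only to results without a call at the reported settings.

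With at least 15 reads (1640 dyads) asymmetry calls were 3 in OX40L-JAG1 Treg, 4 in PBS Treg and 5 in OX40L-JAG1 Teff. With at least 5 reads (163629 dyads) they were 3, 0, 2 and 6 in OX40L-JAG1 Treg, PBS Treg, OX40L-JAG1 Teff and PBS Teff, with 0 in all 4 libraries, and 5 of the 7 dyads called lay in the same dyad-rich windows. Without those windows, a setting chosen after seeing the data, the calls were 0 in each library, and the recurring ones 0.

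For PBS Treg against PBS Teff, lower calls were 8 at 5 reads and 1 without the dyad-rich windows, and higher calls were 0 at 15 reads and 3 at 5 reads. On the forward strand alone they were 1 at 5 reads and 0 without those windows, and on the reverse strand 1 at 15 reads and 1 by chi-square test. For OX40L-JAG1 Treg against PBS Treg, 1 lower call appeared at 15 reads. For OX40L-JAG1 Teff against PBS Teff, lower calls were 14 at 15 reads, 0 at 5 reads, 7 by chi-square test and 2 without the dyad-rich windows, so this count is unstable.

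The ratio of the squared strand difference to its expectation was 1.29, 1.24, 1.23 and 1.33 at 15 reads, 1.03, 1.04, 1.04 and 1.06 at 5 reads, and 1.01, 1.05, 1.02 and 1.11 without the dyad-rich windows, in OX40L-JAG1 Treg, PBS Treg, OX40L-JAG1 Teff and PBS Teff. At 10 to 14 reads, with only 17 dyads, it was 1.27 in OX40L-JAG1 Treg, 0.968 in PBS Treg, 0.674 in Teff of OX40L-JAG1 mice and 0.813 in PBS Teff. The observed over expected count of differences of 20 points or more was 1.24 in OX40L-JAG1 Treg and 1.46 in PBS Teff at 15 reads, and 1.02, 1.03, 1.03 and 1.05 in the 4 libraries at 5 reads. Without the dyad-rich windows it was 1.08 in PBS Treg, 1.05 in Teff of OX40L-JAG1 mice and 1.15 in PBS Teff. At 10 to 14 reads it was 1.51 in OX40L-JAG1 Treg, 0.677 in Teff of OX40L-JAG1 mice and 0.802 in PBS Teff. The cause of these shifts was not tested.

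No paired analysis was possible because each group has 1 library, and for the same reason no library was left out. Depth limits the calls: at a median of 15 to 24 reads a strand, the median called strand difference was 57.7 to 76.9 points, and the smallest called one was 40.0 points.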

Other observations

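Gm21112, on chromosome 8 at chr8:20596994-20596995, was called asymmetric in 2 libraries and stands outside the 10 dyads named by rule. Its strand difference, forward minus reverse, was 43.8 points in OX40L-JAG1 Treg, 57.7 in PBS Treg, 33.5 in Teff of OX40L-JAG1 mice and 60.6 in PBS Teff. It was chosen for naming after its values were seen.

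Among genes with several dyads, 1600014C10Rik on chromosome 7 held 23 dyads at intermediate levels on both strands. Its forward and reverse levels were 44.0% and 52.0% in OX40L-JAG1 Treg, 42.8% and 49.5% in PBS Treg, 45.6% and 50.8% in OX40L-JAG1 Teff, and 46.7% and 52.7% in PBS Teff. The reverse strand was the higher in all 4 libraries, none of its dyads was called, and the gene was chosen for naming after its values were seen.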
